A study of Mus musculus with 20 samples.

Results

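Liver and kidney are the organs that can release newly made glucose into the blood, and the comparison set the 4 liver libraries of the series against its 4 kidney libraries, 8 of the 20 RNA-seq libraries in all. Libraries were taken by the organ named in their labels, with both genotypes on each side, and each organ had 2 wild-type (WT) and 2 Nsun6 knockout (KO) libraries. The KO mouse line lacked exons 3 and 4 of Nsun6, a gene for an RNA cytosine methyltransferase, and was made by CRISPR/Cas9 in fertilized eggs of C57BL/6J mice. The deletion was constitutive, so every cell of the KO organs carried it. The organs were taken from 8-week-old female mice, and the 2 libraries of each organ and genotype are described as biological replicates. Whether a liver and a kidney came from the same mouse was not stated. Xist, the RNA of the inactive X chromosome, was counted in every library, at 1382 to 2276 CPM in liver and 759 to 1396 CPM in kidney. CPM (counts rescaled to a common library size) were scaled by TMM, a method that sets the bulk of genes level between libraries, and TPM is a count per transcript length that allows genes to be compared with each other.

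Gluconeogenesis turns lactate, glycerol, and amino acids into glucose. Pyruvate carboxylase and phosphoenolpyruvate carboxykinase lift the carbon around the irreversible last step of glycolysis, fructose bisphosphatase and glucose 6-phosphatase reverse its earlier irreversible steps, and only cells with the phosphatase can give the sugar away. The liver is known to draw mainly on lactate and alanine and to dispose of the nitrogen as urea, while the proximal tubule of the kidney draws on lactate and glutamine and sends the ammonia into urine. Both organs also clear drugs and metabolites, through oxidation by cytochromes P450, conjugation to sugars, sulfate, glutathione, or amino acids, and membrane carriers that take the products to bile or urine.

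The sequences around the start sites of 6 genes with contrasting organ patterns are shown here, taken from RefSeq on the GRCm38.p6 build and running from 250 bases before to 50 bases after the start. Pck1 and G6pc were at high levels in both organs, Hao1 and Ugt1a1 were higher in liver, and Hao2 and Ugt1a2 were higher in kidney. Capitals mark exact matches to TATAAA, the letters of the TATA box (TTTATA on the other strand), and to TTACGTCA, a cyclic AMP response element of the Pck1 promoter, searched on both strands.
Pck1, chr2:173152823-173153122, plus strand: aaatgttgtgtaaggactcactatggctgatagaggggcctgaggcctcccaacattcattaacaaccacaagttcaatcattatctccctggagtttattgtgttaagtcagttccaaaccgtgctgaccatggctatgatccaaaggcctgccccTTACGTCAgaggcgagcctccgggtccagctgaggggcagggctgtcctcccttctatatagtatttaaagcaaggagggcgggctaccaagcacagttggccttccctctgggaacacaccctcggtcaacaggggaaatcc
G6pc, chr11:101367466-101367765, plus strand: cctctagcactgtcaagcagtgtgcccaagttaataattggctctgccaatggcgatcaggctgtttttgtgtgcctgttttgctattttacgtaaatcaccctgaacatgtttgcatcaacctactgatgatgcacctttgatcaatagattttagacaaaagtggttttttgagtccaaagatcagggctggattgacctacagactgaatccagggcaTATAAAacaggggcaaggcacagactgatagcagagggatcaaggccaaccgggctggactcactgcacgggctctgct
Hao1, chr2:134554303-134554602, minus strand: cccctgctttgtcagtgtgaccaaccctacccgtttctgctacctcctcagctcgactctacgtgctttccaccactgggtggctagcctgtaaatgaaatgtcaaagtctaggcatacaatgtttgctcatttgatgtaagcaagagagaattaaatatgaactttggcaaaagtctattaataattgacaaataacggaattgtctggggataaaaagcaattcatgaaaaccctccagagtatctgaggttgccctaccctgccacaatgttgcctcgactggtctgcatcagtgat
Hao2, chr3:98893181-98893480, minus strand: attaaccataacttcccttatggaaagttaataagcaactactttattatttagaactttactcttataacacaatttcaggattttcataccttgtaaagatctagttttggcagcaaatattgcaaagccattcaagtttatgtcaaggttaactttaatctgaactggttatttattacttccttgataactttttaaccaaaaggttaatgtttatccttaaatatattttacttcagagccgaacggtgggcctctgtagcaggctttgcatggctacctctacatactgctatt
Ugt1a1, chr1:88211709-88212008, plus strand: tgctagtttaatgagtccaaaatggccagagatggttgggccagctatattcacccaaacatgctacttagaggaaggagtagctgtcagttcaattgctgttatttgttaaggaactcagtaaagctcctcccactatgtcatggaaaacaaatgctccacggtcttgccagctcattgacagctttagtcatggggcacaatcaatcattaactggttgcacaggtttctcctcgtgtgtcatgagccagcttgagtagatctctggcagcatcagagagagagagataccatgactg
Ugt1a2, chr1:88200361-88200660, plus strand: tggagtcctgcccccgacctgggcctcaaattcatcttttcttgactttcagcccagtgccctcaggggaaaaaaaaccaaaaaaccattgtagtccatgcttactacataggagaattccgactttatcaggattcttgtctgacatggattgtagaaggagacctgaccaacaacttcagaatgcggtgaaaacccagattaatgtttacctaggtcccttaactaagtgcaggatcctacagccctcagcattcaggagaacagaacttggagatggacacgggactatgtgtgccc

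Pck1 held TTACGTCA from base -93 to -86 and G6pc held TATAAA at -29 to -24, while Hao1, Hao2, Ugt1a1, and Ugt1a2 held neither run of letters in this window. Over all 32851 promoters of the same length, 13.6% held TATAAA and 0.499% held TTACGTCA, and over the promoters of tested genes the shares were 8.48% and 0.697%. TATAAA was in 13.99% of 1458 promoters of genes higher in liver and at 10 TPM or more there, in 10.1% of 1761 for genes higher in kidney and at that level, and in 6.19% of 2457 for genes at a like level in both organs. The shares for TTACGTCA in these groups were 0.754%, 0.341%, and 1.14%. Of the promoters of genes above all 12 libraries of the other organs in both liver and kidney, 11.6% held TATAAA and 0.771% held TTACGTCA. These shares describe letters in a window, not bound sites.

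The 4 liver libraries held 32890390 and 31182605 counts for WT and 32381398 and 44508197 for KO. The 4 kidney libraries held 25988075 and 25327492 for WT and 25220170 and 24772312 for KO. The 10 most abundant genes took 17.8% to 26.8% of the liver counts and 7.21% to 10.4% of the kidney counts. Nsun6 itself was low in all 8 libraries, at 6.05 and 4.02 (WT) and 3.40 and 3.80 (KO) in liver, and 5.09 and 5.004 (WT) and 3.44 and 2.84 (KO) in kidney (CPM). Both KO values were below both WT values in each organ, by a small margin in liver. Gene-level counts include exons outside the deletion, so they do not check the KO labels fully.

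The organ labels held against the defining markers of each organ. The 15 hepatocyte markers summed to 226205 to 328972 TPM in liver and to 275 to 533 TPM in kidney, and Alb, which encodes serum albumin, was their most abundant gene at 170834 TPM in liver and 58.6 TPM in kidney. The 10 proximal tubule markers summed to 85454 to 136897 TPM in kidney and to 7.46 to 10.4 TPM in liver, led by Kap, the androgen-regulated kidney protein, at 110815 TPM. Markers of the thick ascending limb (Umod, Slc12a1), the distal convoluted tubule (Slc12a3), and collecting duct principal cells (Aqp2) were counted in kidney and at or near 0 in liver. The 6 markers of the intercalated cells of the collecting duct were not all near 0 in liver. They summed to 14.5 to 42.1 TPM in liver and 423 to 602 TPM in kidney. Of these markers 5 were called higher in kidney and 1 was not called. Kupffer cell markers such as Clec4f stood at 144 to 228 CPM in liver and 0 to 0.284 CPM in kidney. Adipocyte markers summed to 142.0, 90.4, and 93.0 TPM in the first 3 kidney libraries (both WT and KO replicate 1) and to 1.72 TPM in KO replicate 2. Their part in the kidney values was not tested. Each library held RNA of a whole tissue sample, and which part of an organ it came from was not stated, so fewer cells of a type and less RNA per cell cannot be told apart in any comparison here.

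Kidney WT replicate 2 stood apart from the other kidney libraries. Correlations of log2 CPM were 0.973 to 0.982 within liver, 0.909 to 0.979 within kidney, and 0.675 to 0.697 between the organs. Its summed markers were the lowest of the 4 kidneys for the distal convoluted tubule (725 TPM against 1117 to 2160) and for the principal cells of the collecting duct (193 against 440.3 to 741), and little below the others for the thick ascending limb (2536 against 2742 to 3755). Its proximal tubule sum, most of it Kap, was second highest at 123231 TPM, while single carriers of the tubule went both ways. Slc5a12, a lactate carrier, was highest in that library, at 395 CPM against 215 to 334 CPM in the other kidneys. Slc34a1, the phosphate carrier of the proximal tubule, was low there, at 445 CPM against 1300.2 to 3927 CPM in the other kidneys. So was Slc12a3, the salt carrier of the distal convoluted tubule, at 193 CPM against 1407 to 3394 CPM. Across 18872 genes, the deviation of that library from the kidney mean had a Spearman correlation of -0.45 with transcript GC content, against 0.502 for KO replicate 1 and -0.056 to 0.079 for the livers. The log2 organ difference itself had a correlation of -0.0565 with GC content, and of -0.114 without this library. Named genes that lose or gain a call without this library are given with that value below. Counts of calls in gene lists come from all 8 libraries, and some of them shifted without this library.

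Of 18893 genes tested, 2842 (15.04%) were higher in liver and 4719 (24.98%) were higher in kidney (40.02% in either direction), at an adjusted p under 0.1 and a fold over 2 in edgeR's quasi-likelihood test. All 4 libraries of one organ were above all 4 of the other for 2661 and 4132 of them, and among all tested genes such separation occurred for 19.8% with liver above and 27.4% with kidney above. Another 2485 genes (13.2%) were called shared, meaning that the 95% interval of the fold lay within 2-fold either way and that both organs were at 10 TPM or more. The balance of the calls depended on the scaling. With plain library totals every log2 fold change shifted by a median of -0.71, and 1865 genes (9.87%) were higher in liver, 7830 (41.4%) were higher in kidney, and 1586 (8.39%) were shared, so that 19.2% of the called genes were liver genes in place of 37.6%. All 4719 kidney calls and 1865 of the liver calls were made under both scalings, as were 846 of the shared calls. Fold changes below are log2 values of liver minus kidney after TMM, so positive values mean higher in liver, and they are given ± SE from the same model. Other ± values are SD with n = 4 libraries per organ. The median over all tested genes was -0.17 (-0.89 with library totals). The shares of all tested genes (15.04% higher in liver, 24.98% higher in kidney, and 13.2% shared) are the background for the list counts below. For list counts with library totals the background is 9.87%, 41.4%, and 8.39%. Every gene named here and called higher in one organ had an adjusted p of 0.0248 or less.

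In the fit of all 8 libraries no organ difference depended detectably on genotype. The test of whether the KO effect differed between liver and kidney gave 0 calls (0.00%) at an adjusted p under 0.1 in edgeR and 0 in DESeq2, with 339 genes (1.79%) at an unadjusted p under 0.05. Without kidney WT replicate 1, however, which leaves a single WT kidney, it gave 1553 calls. Sult3a1, a sulfotransferase, was 147 and 131 (WT) and 743 and 739 (KO) in liver, and 0 and 0.319 (WT) and 0.0619 and 0.183 (KO) in kidney (CPM). Csad, the decarboxylase of taurine synthesis, was 25.03 and 23.01 (WT) and 77.6 and 70.6 (KO) in liver, and 72.5 and 49.8 (WT) and 69.3 and 64.3 (KO) in kidney. Both KO livers were above both WT livers for these genes, while the kidneys of the 2 genotypes lay together or overlapped. Neither gene passed the test of the difference.

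Of the 8 genes of the gluconeogenic core none was called higher in liver, 2 were called higher in kidney, 1 was called shared, and 5 were neither, beside 15.04%, 24.98%, and 13.2% of all tested genes in the first 3 classes. With library totals 0 were higher in liver, 3 were higher in kidney, and 3 were shared. The summed level of the list was 3036 to 3683 TPM in liver and 3696 to 5438 TPM in kidney. TPM, here and in the other sums, carry no TMM scaling and compare the organs much as library totals do. The median log2 fold change of the list was 0.17 after TMM and -0.54 with library totals. Pck1, the cytosolic phosphoenolpyruvate carboxykinase, was 1672 and 2764 (WT) and 1801 and 3136 (KO) in liver, and 1349 and 2349.6 (WT) and 2663 and 1217 (KO) in kidney (CPM). The organs overlapped, and the log2 fold change was 0.31 ± 0.39 (adjusted p = 0.57) and -0.41 with library totals. By TPM it was gene number 83 in liver and number 57 in kidney. Its mitochondrial counterpart Pck2 was low throughout, at 5.69 and 6.49 (WT) and 7.66 and 5.48 (KO) in liver, and 12.5 and 10.3 (WT) and 12.6 and 9.24 (KO) in kidney (CPM), with every kidney above every liver but a fold under 2 (log2 fold change -0.82 ± 0.24, adjusted p = 0.026), and it was called higher in kidney with library totals.

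Fbp1, the fructose bisphosphatase of liver and kidney, was 765 and 938 (WT) and 1132 and 1086 (KO) in liver, and 509 and 774 (WT) and 698 and 686 (KO) in kidney (CPM). It overlapped between the organs (log2 fold change 0.54 ± 0.23, adjusted p = 0.09), and its sign turned to -0.16 with library totals. G6pc, the catalytic subunit of glucose 6-phosphatase, was 570.4 and 1030.1 (WT) and 761 and 796 (KO) in liver, and 378 and 429 (WT) and 642 and 481 (KO) in kidney. Kidney KO replicate 1 lay within the liver range (log2 fold change 0.73 ± 0.25, adjusted p = 0.048), and the difference was -0.01 with library totals. Slc37a4, which carries glucose 6-phosphate to that enzyme, was 206 and 398 (WT) and 278 and 221 (KO) in liver, and 193 and 288 (WT) and 349 and 242 (KO) in kidney. It was called shared, with a log2 fold change of 0.04 ± 0.28 that became -0.68 with library totals, where it was no longer shared. Pcx, pyruvate carboxylase, was 253 and 336 (WT) and 282 and 377 (KO) in liver, and 149 and 156 (WT) and 215 and 144 (KO) in kidney. All livers were above all kidneys at a fold of 1.88 (log2 fold change 0.91 ± 0.21, adjusted p = 0.0096). The fold passed 2 without kidney WT replicate 2 (log2 fold change 1.04) and without 3 other single libraries, and the log2 fold change was 0.19 with library totals.

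The called members were minor isoforms. Fbp2, the fructose bisphosphatase of muscle, was 0.430 and 0 (WT) and 0.450 and 0.122 (KO) in liver, and 11.8 and 33.1 (WT) and 28.0 and 31.0 (KO) in kidney (CPM). G6pc3, the ubiquitous phosphatase subunit, was 9.32 and 6.27 (WT) and 8.27 and 7.38 (KO) in liver, and 21.8 and 13.8 (WT) and 26.9 and 13.8 (KO) in kidney. Every kidney was above every liver for both (log2 fold changes -6.65 ± 0.78 and -1.29 ± 0.30, adjusted p = 0.00026 and 0.0094). They made up little of each step, however. Fbp1 held 99.97% of the Fbp1 and Fbp2 transcripts in liver and 95.8% in kidney, G6pc held 98.9% and 95.8% of its pair, and Pck1 held 99.9% and 99.7%. Of these core genes, 4 (Pcx, Pck1, Fbp1, and G6pc) were higher in each of the 8 liver and kidney libraries than in any of the 12 libraries of small intestine, spleen, and heart, a pattern that 3.11% of tested genes showed. The margin was narrow for G6pc. On the CPM scale of that comparison its lowest of the 8 values was 404 and the highest of the 12 others was 367. For Pck1 these were 1424 and 281, and for Fbp1 545 and 169.

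**Figure D1:**
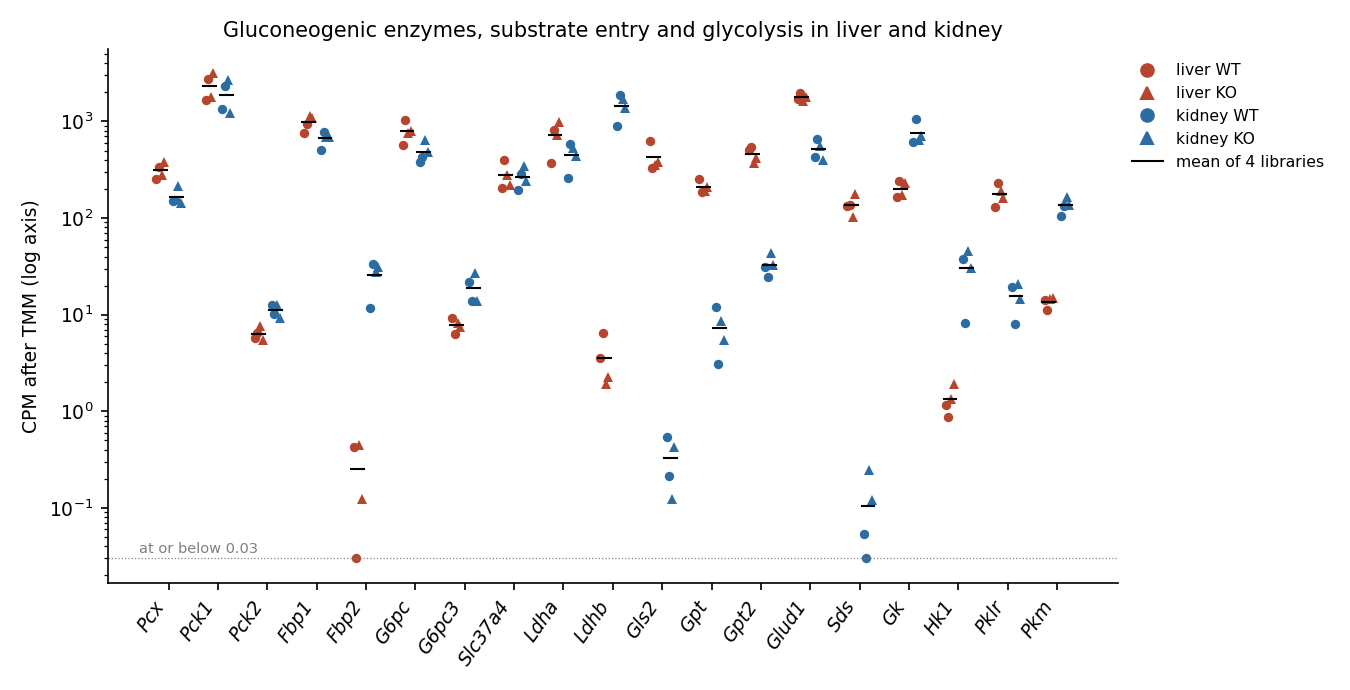
Expression (CPM after TMM, log axis) of gluconeogenic, substrate-entry, and glycolytic genes in the 4 liver (red) and 4 kidney (blue) libraries. Circles are WT, triangles KO, black lines means of 4. Pck1, Fbp1, G6pc, and Slc37a4 overlap between organs, whereas Ldhb, Gls2, and Sds are separated by more than 10-fold.

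Of 23 genes of substrate entry, 10 were higher in liver, 3 were higher in kidney, 3 were shared, and 7 were neither, with a median log2 fold change of 0.49. With library totals 8 were higher in liver and 8 in kidney, and the median was -0.21. The kidney genes included Ldhb and Gk. Ldhb, the heart-type lactate dehydrogenase subunit, was 3.604 and 6.45 (WT) and 1.92 and 2.27 (KO) in liver, and 896 and 1874 (WT) and 1699.5 and 1381 (KO) in kidney (CPM). The organs were far apart (log2 fold change -8.81 ± 0.44, adjusted p = 3.6e-06), while Ldha, the muscle-type subunit, was 373 and 811 (WT) and 726 and 977 (KO) in liver, and 258 and 584 (WT) and 526 and 435 (KO) in kidney, and it overlapped (log2 fold change 0.66 ± 0.35, adjusted p = 0.17). Ldha became a liver call without kidney WT replicate 2 (log2 fold change 1.13). Ldha made up 98.8% of the pair in liver and 12.7% in kidney.

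Gls2, the liver-type glutaminase, which releases ammonia from glutamine, was 624 and 334 (WT) and 356 and 384 (KO) in liver, and 0.539 and 0.213 (WT) and 0.124 and 0.427 (KO) in kidney (CPM). No kidney came near the livers (log2 fold change 10.31 ± 0.51, adjusted p = 3.4e-06). Gk, glycerol kinase, was 164 and 240.1 (WT) and 174 and 230.1 (KO) in liver, and 617 and 1058 (WT) and 637 and 703 (KO) in kidney, and it was higher in every kidney (log2 fold change -1.89 ± 0.26).

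Gpt, Gpt2, Sds, and Glud1, which act on alanine, serine, or glutamate, were higher in liver. Gpt and Gpt2, the cytosolic and mitochondrial alanine aminotransferases, averaged 210.4 ± 31.6 and 459.8 ± 82.6 CPM in liver and 7.30 ± 3.92 and 32.9 ± 7.84 CPM in kidney, respectively (log2 fold changes 4.85 ± 0.45 and 3.81 ± 0.21). Sds, which turns serine into pyruvate, averaged 138 ± 31.9 CPM in liver and 0.106 ± 0.107 CPM in kidney (log2 fold change 10.74 ± 0.45). Glud1, glutamate dehydrogenase, averaged 1786 ± 146 CPM in liver and 513 ± 121 CPM in kidney and was above the kidneys in every liver (log2 fold change 1.802 ± 0.26), and like 4 of the core genes it exceeded the other organs in all 8 libraries. The mitochondrial pyruvate carriers Mpc1 and Mpc2 were shared, at 82.1 ± 10.1 and 371 ± 61.0 CPM in liver and 77.6 ± 11.9 and 362 ± 89.6 CPM in kidney, respectively. Their log2 fold changes were 0.08 and 0.02, against -0.63 and -0.67 with library totals.

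Glycolysis is the opposing route. Of its 24 genes 6 were higher in liver and 7 in kidney, beside 15.04% and 24.98% of all tested genes, while 3 were shared and 8 were neither, and 6 and 13 were called with library totals. Hk1, a high-affinity hexokinase, was 1.16 and 0.883 (WT) and 1.35 and 1.93 (KO) in liver, and 37.7 and 8.27 (WT) and 45.5 and 30.8 (KO) in kidney (CPM), and every kidney was above every liver (log2 fold change -4.51 ± 0.52). Pklr, the liver-type pyruvate kinase, averaged 177 ± 42.6 CPM in liver and 15.7 ± 5.69 CPM in kidney, and Pkm, the form of other tissues, averaged 13.7 ± 1.66 CPM in liver and 136 ± 25.03 CPM in kidney (log2 fold changes 3.51 ± 0.34 and -3.31 ± 0.18). Pklr was 94.99% of that pair in liver and 15.2% in kidney.

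The phosphofructokinases Pfkm and Pfkp were higher in kidney (log2 fold changes -1.45 ± 0.31 and -3.77 ± 0.24), and Pfkfb1, the bifunctional enzyme that sets their activator in liver, was higher in liver (log2 fold change 5.18 ± 0.23). Aldoa, the general aldolase, was higher in kidney (log2 fold change -2.51 ± 0.22).

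Fructose and polyol enzymes included both shared genes and genes of one organ. Khk, ketohexokinase, was 385 and 505 (WT) and 530.2 and 524 (KO) in liver, and 389 and 557 (WT) and 625 and 505 (KO) in kidney (CPM), and it was shared, as were Sord, sorbitol dehydrogenase, and Xylb, xylulokinase. Their log2 fold changes were -0.09, 0.46, and -0.23, and -0.81, -0.25, and -0.97 with library totals. Miox, which opens myo-inositol, was 0.198 and 0.442 (WT) and 0.655 and 0.490 (KO) in liver, and 1986 and 2590.5 (WT) and 2799 and 1972 (KO) in kidney, and it was a kidney gene (log2 fold change -12.43 ± 0.45). Gulo, the last enzyme of vitamin C synthesis, was 298 and 397 (WT) and 345 and 442 (KO) in liver, and 0.242 and 0.497 (WT) and 0.836 and 0.427 (KO) in kidney, and it was a liver gene (log2 fold change 9.59 ± 0.38). Slc2a5, the fructose carrier, and Akr1b3, aldose reductase, averaged 3.48 ± 0.915 and 14.4 ± 2.64 CPM in liver and 61.1 ± 13.03 and 107 ± 57.8 CPM in kidney, respectively, both higher in kidney (log2 fold changes -4.13 ± 0.25 and -2.89 ± 0.39). Without kidney WT replicate 2 the value for Akr1b3 was -2.19. Of the 10 genes in this list 2 were higher in liver, 4 were higher in kidney, 3 were shared, and 1 was neither. The first 3 classes held 15.04%, 24.98%, and 13.2% of all tested genes. With library totals 1 was higher in liver, 5 were higher in kidney, and 1 was shared.

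Glycogen enzymes differed by form, with a single leading form in liver and a mixture in kidney. Of 16 tested genes of 17 in the list, 6 (37.5%) were higher in liver and 5 (31.25%) were higher in kidney, with 1 shared. Among all tested genes the shares were 15.04%, 24.98%, and 13.2%. Gys2, the liver glycogen synthase, was 196 and 537 (WT) and 228 and 210.1 (KO) in liver, and 10.8 and 14.3 (WT) and 15.1 and 14.9 (KO) in kidney (CPM). Gys1, the muscle form, was 6.08 and 2.92 (WT) and 4.34 and 2.66 (KO) in liver, and 33.4 and 11.3 (WT) and 29.3 and 17.5 (KO) in kidney (log2 fold changes 4.37 ± 0.35 and -2.52 ± 0.44). Pygl and Pygb, the liver and brain glycogen phosphorylases, averaged 533 ± 60.2 and 6.44 ± 0.915 CPM in liver and 29.5 ± 7.51 and 23.9 ± 4.44 CPM in kidney, respectively. By TPM Gys2 held 99.1% of its pair in liver and 36.8% to 69.6% across the kidneys, highest in kidney WT replicate 2, and Pygl held 98.3% and 37.5% to 54.2%. The kidney means were 53.8% and 45.9%, and 40.1% and 54.7% as shares of CPM, so neither form led on both scales. Ppp1r3b, which targets a phosphatase to liver glycogen, averaged 536 ± 114 CPM in liver and 1.59 ± 0.795 CPM in kidney (log2 fold change 8.495 ± 0.37).

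**Figure D2:**
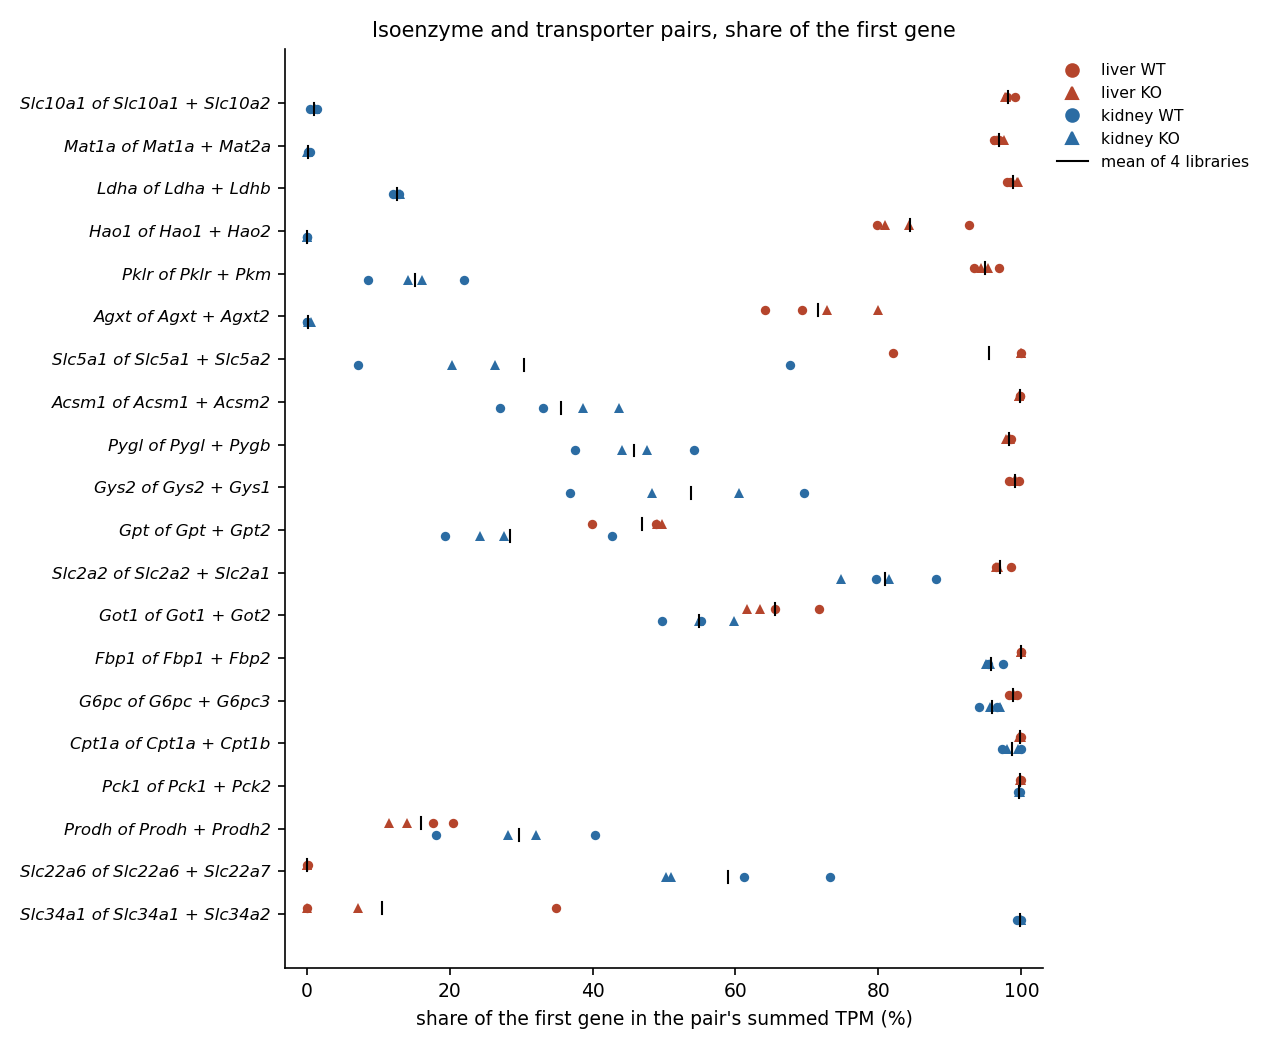
Share (%) of the first gene in the summed TPM of each of 20 pairs, in the 4 liver (red) and 4 kidney (blue) libraries. Circles are WT, triangles KO, black ticks means of 4. The organs do not overlap in 17 pairs, and by mean TPM share 11 pairs are led by a different gene in each organ. Separation can be slight, as for Pck1 at 99.87% in liver and 99.72% in kidney. Slc5a1 and Slc5a2 are both near 0 in liver, so the lead there rests on few counts. The kidney lead of some pairs changes with CPM shares.

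Most genes of the urea cycle were higher in liver. Of 15 tested genes of the cycle and of ammonia handling (16 in the list), 11 were higher in liver, 3 were higher in kidney, and 1 was shared, with a median log2 fold change of 2.21 (1.49 with library totals). Cps1, the mitochondrial enzyme that starts the cycle, was 6836 and 4172 (WT) and 3239.6 and 4197 (KO) in liver, and 0.539 and 1.31 (WT) and 0.464 and 0.427 (KO) in kidney (CPM). Otc, which makes citrulline, was 1048 and 1122 (WT) and 1041 and 1120.1 (KO) in liver, and 0.0539 and 0.0710 (WT) and 0 and 0 (KO) in kidney. Neither gene rose above 1.31 CPM in any kidney (log2 fold changes 12.78 ± 0.55 and 16.0004 ± 0.40, adjusted p = 2.1e-06 and 1.1e-06). Ass1, argininosuccinate synthase, was 1856 and 1473 (WT) and 1157 and 1343 (KO) in liver, and 501 and 599 (WT) and 697 and 398 (KO) in kidney. It was higher in every liver (log2 fold change 1.39 ± 0.27, adjusted p = 0.0035), fell short of the fold threshold with library totals (0.70), and ranked 90 by TPM in liver and 176 in kidney. Asl, the lyase that follows it and releases arginine, averaged 581 ± 111 CPM in liver and 126 ± 31.6 CPM in kidney (log2 fold change 2.21 ± 0.26), and both genes exceeded the other 3 organs in all 8 libraries.

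Glul, glutamine synthetase, was 776 and 866 (WT) and 633 and 725 (KO) in liver, and 488 and 500.1 (WT) and 623 and 549 (KO) in kidney (CPM), and it was shared, with a log2 fold change of 0.47 (-0.25 with library totals). Rhcg, an ammonia channel of the collecting duct, was 0 and 0 (WT) and 0 and 0.122 (KO) in liver, and 104 and 24.5 (WT) and 96.3 and 68.2 (KO) in kidney, and it was a kidney gene (log2 fold change -12.03 ± 0.94).

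Genes of amino acid breakdown were more often higher in liver than in kidney. Of 53 genes 33 were higher in liver, 3 were higher in kidney, 5 were shared, and 12 were neither, with 23, 5, and 15 of these classes under library totals. All 33 liver genes were separated between the organs, as were 2661 of the 2842 liver calls over all tested genes. Of the 53 genes 31 exceeded the other organs in all 8 libraries, beside 3.11% of tested genes. Tat and Tdo2, which start tyrosine and tryptophan breakdown, averaged 1702 ± 446 and 2682 ± 639 CPM in liver and 0.266 ± 0.119 and 1.17 ± 0.948 CPM in kidney, respectively (log2 fold changes 12.64 ± 0.54 and 11.29 ± 0.60). Hpd, the next enzyme of the tyrosine route, was 1707 and 2270.2 (WT) and 2042 and 2634 (KO) in liver, and 116 and 157 (WT) and 93.9 and 75.6 (KO) in kidney (CPM), and it was higher in liver while still above 75 CPM in every kidney (log2 fold change 4.33 ± 0.28).

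The oxidases Hao1 and Hao2 were higher in opposite organs. Hao1, the glycolate oxidase of liver peroxisomes, was 294 and 503 (WT) and 392 and 484 (KO) in liver, and 0.0539 and 0.497 (WT) and 0 and 0.0610 (KO) in kidney (CPM). Hao2, which oxidizes long-chain hydroxy acids, was 67.0 and 35.5 (WT) and 65.6 and 102 (KO) in liver, and 732 and 1602 (WT) and 1142 and 1305 (KO) in kidney. The organs stood apart for both (log2 fold changes 12.10 ± 0.69 and -4.19 ± 0.39, adjusted p = 6.2e-06 and 7.2e-05), and the promoters of this pair are the Hao sequences shown above. Agxt, the liver aminotransferase that disposes of glyoxylate, averaged 296 ± 57.7 CPM in liver and 0.0920 ± 0.117 CPM in kidney (log2 fold change 13.36 ± 0.41), while Agxt2, a mitochondrial relative, was 241 and 261 (WT) and 183 and 176 (KO) in liver, and 111 and 144 (WT) and 112 and 81.9 (KO) in kidney. Agxt2 was higher in every liver at under 2-fold (log2 fold change 0.94 ± 0.18, adjusted p = 0.0038), passed 2-fold without kidney WT replicate 2 (log2 fold change 1.15), without kidney KO replicate 1 (1.06), and with TMM computed without the 50 top genes (1.009), and exceeded the other organs in all 8 libraries. Dao, the oxidase of D-amino acids, was 0 and 0 (WT) and 0.0409 and 0 (KO) in liver, and 106 and 98.9 (WT) and 139 and 101 (KO) in kidney. A single liver count was recorded, for a ratio of 12214 (95% counting interval 2192 to 482434) in favor of kidney.

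Mat1a, the methionine adenosyltransferase of adult liver, averaged 3754 ± 522 CPM in liver and 0.809 ± 0.682 CPM in kidney, and Mat2a, the form of other tissues, averaged 159 ± 38.0 CPM in liver and 486 ± 94.4 CPM in kidney (log2 fold changes 12.43 ± 0.59 and -1.62 ± 0.20). Mat1a took 96.8% of the pair in liver and 0.22% in kidney. The shared members of the list were Acadsb, Amt, Gcsh, Hoga1, and Ivd. Ivd, which acts on the leucine chain, was 182 and 178 (WT) and 152 and 192 (KO) in liver, and 184 and 136 (WT) and 232 and 181 (KO) in kidney (CPM) with a log2 fold change of -0.05 (-0.78 with library totals).

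Oxct1, the transferase that lets tissues burn ketone bodies, was 7.94 and 7.11 (WT) and 7.33 and 7.29 (KO) in liver, and 1283 and 2025 (WT) and 1691 and 1620.4 (KO) in kidney (CPM). It was a kidney gene with no overlap between the organs (log2 fold change -7.80 ± 0.31, adjusted p = 1.7e-06). Of 32 genes of fatty acid oxidation and ketone bodies, 15 were higher in liver, 4 were higher in kidney, and 3 were shared. With library totals these counts were 4, 6, and 11. The shares of all tested genes in these classes were 15.04%, 24.98%, and 13.2%, and 9.87%, 41.4%, and 8.39% with library totals. Hadh, Hadhb, and Ech1 of the mitochondrial and peroxisomal spirals were shared, at log2 fold changes of 0.43, 0.08, and 0.08 (-0.27, -0.63, and -0.62 with library totals). Acadm, the medium-chain dehydrogenase, was 369 and 489 (WT) and 454 and 548 (KO) in liver, and 537 and 1572 (WT) and 1288 and 1814 (KO) in kidney, and it was called higher in kidney (log2 fold change -1.46 ± 0.36), with KO replicate 2 of liver above kidney WT replicate 1 and no call without kidney WT replicate 2 (log2 fold change -0.86).

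Bile acid synthesis was a liver pathway, and its recovery carriers were kidney genes. Of 27 tested genes 23 were higher in liver and 3 were higher in kidney, none was shared, and the median log2 fold change was 4.12 (3.45 with library totals). Slc27a5, which activates bile acids for conjugation, averaged 711 ± 62.6 CPM in liver and 0.362 ± 0.176 CPM in kidney (log2 fold change 11.01 ± 0.34), and Abcb11, the export pump of the hepatocyte, averaged 566 ± 109.8 CPM in liver and 0.0777 ± 0.0782 CPM in kidney (log2 fold change 12.80 ± 0.59). Without kidney KO replicate 1 the Abcb11 value was 15.06. Slc10a1, which takes bile acids up from blood, was 682 and 888 (WT) and 784 and 965 (KO) in liver, and 0.835 and 0.532 (WT) and 0.898 and 1.13 (KO) in kidney (CPM). Slc10a2, the apical carrier of ileum and proximal tubule, was 25.4 and 15.0 (WT) and 34.8 and 40.4 (KO) in liver, and 112 and 201 (WT) and 152 and 187 (KO) in kidney. Slc51a and Slc51b, the subunits of the basolateral exporter that works with Slc10a2, averaged 0.304 ± 0.132 and 0.508 ± 0.458 CPM in liver and 47.7 ± 13.1 and 37.3 ± 13.3 CPM in kidney, respectively. All 3 kidney genes were above the livers in every library (log2 fold changes -2.56 ± 0.27, -7.28 ± 0.38, and -6.71 ± 0.43).

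Several routes pass an intermediate from one organ to the other, and 38 genes of such relays were in the table. Of 37 tested (Epo, at or near 0 in every library, was not), 15 were higher in liver, 17 were higher in kidney, 4 were shared, and 1 was neither. With library totals 13 were higher in liver and 18 in kidney. Among all tested genes 15.04% were higher in liver and 24.98% in kidney, and 9.87% and 41.4% with library totals. Creatine begins with Gatm, the amidinotransferase, and is finished by Gamt, the methyltransferase. Gatm was 17.2 and 14.4 (WT) and 14.5 and 14.9 (KO) in liver, and 701 and 598 (WT) and 764 and 834 (KO) in kidney (CPM). Gamt was 132 and 129 (WT) and 167 and 163 (KO) in liver, and 7.002 and 7.20 (WT) and 9.01 and 7.26 (KO) in kidney. The organs were separated in opposite directions (log2 fold changes -5.56 ± 0.22 and 4.27 ± 0.16, adjusted p = 1.6e-06 and 1.6e-06). Slc6a8, the creatine carrier, and Ckb, a creatine kinase, were higher in kidney (log2 fold changes -4.67 ± 0.29 and -3.10 ± 0.25).

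Vitamin D is hydroxylated first in liver and then in kidney. Cyp2r1 and Cyp27a1, which can make the first product, averaged 37.0 ± 3.27 and 359.6 ± 18.2 CPM in liver and 2.30 ± 0.421 and 31.9 ± 9.28 CPM in kidney, respectively (log2 fold changes 4.02 ± 0.20 and 3.50 ± 0.26). Cyp27b1, which makes the hormone, was 0.0331 and 0.0883 (WT) and 0.164 and 0.122 (KO) in liver, and 5.09 and 8.77 (WT) and 8.73 and 8.45 (KO) in kidney (CPM). Cyp24a1, which destroys it, was 0 in all 4 liver libraries, and 129 and 58.8 (WT) and 39.9 and 49.0 (KO) in kidney. The livers held no Cyp24a1 count, so kidney was at least 2539-fold higher (floor of 3 counts over the 4 livers). Gc, the plasma carrier of vitamin D, averaged 10919.6 ± 2459 CPM in liver and 171 ± 77.1 CPM in kidney, and Vdr, the receptor, averaged 0.0744 ± 0.149 CPM in liver and 126 ± 34.2 CPM in kidney (log2 fold changes 6.01 ± 0.45 and -12.20 ± 0.72). Kl, the coreceptor for the phosphate hormone of bone, was 0 in all 4 liver libraries, and 365 and 432 (WT) and 493 and 447 (KO) in kidney, and it was at least 15915-fold higher in kidney.

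The renin and angiotensin genes were divided in the same manner. Agt, the angiotensin precursor, was 211 and 393 (WT) and 317 and 421 (KO) in liver, and 9.05 and 19.98 (WT) and 30.4 and 28.7 (KO) in kidney (CPM). Ren1, renin, was 0 and 0.177 (WT) and 0 and 0.276 (KO) in liver, and 18.9 and 59.1 (WT) and 40.8 and 33.5 (KO) in kidney (log2 fold changes 4.01 ± 0.34 and -8.40 ± 0.87). Ace, a peptidase that acts on the product, averaged 0.393 ± 0.157 CPM in liver and 31.7 ± 13.8 CPM in kidney (log2 fold change -6.33 ± 0.35). For selenium, Selenop, the plasma transport protein, averaged 8570.1 ± 1847 CPM in liver and 863 ± 92.4 CPM in kidney, and Gpx3, the plasma glutathione peroxidase, averaged 5.37 ± 2.15 CPM in liver and 16919 ± 3387 CPM in kidney (log2 fold changes 3.30 ± 0.32 and -11.65 ± 0.63). Gpx3 was the second most abundant kidney transcript, at 30314 TPM.

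Glutathione and taurine genes combined shared and separate steps. Gclc and Gclm, the subunits of the enzyme that begins glutathione synthesis, were shared, at log2 fold changes of -0.02 and 0.39 (-0.72 and -0.32 with library totals). Ggt1, which begins the breakdown of glutathione outside cells, was 0 and 0 (WT) and 0 and 0.0612 (KO) in liver, and 324 and 412 (WT) and 486 and 334 (KO) in kidney (CPM). The livers held 2 counts in all, and the ratio was 21386 (95% counting interval 5920 to 176592). Dpep1, the dipeptidase of the next step, was also a kidney gene (log2 fold change -8.56 ± 0.38), as was Cndp2 (log2 fold change -2.25 ± 0.34), while Anpep was shared (0.02, and -0.74 with library totals). Cdo1, the dioxygenase at the head of taurine synthesis, averaged 2563 ± 113 CPM in liver and 138 ± 46.7 CPM in kidney (log2 fold change 4.23 ± 0.31). Slc6a6, the taurine carrier, was 65.6 and 54.7 (WT) and 67.9 and 69.9 (KO) in liver, and 204 and 67.1 (WT) and 157 and 152 (KO) in kidney. It was called higher in kidney (log2 fold change -1.17 ± 0.32), although kidney WT replicate 2 lay within the liver range, and the call was lost without kidney WT replicate 1 (log2 fold change -0.66).

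For urate, Xdh and Uox, which make and destroy it, averaged 171 ± 41.1 and 3302 ± 487 CPM in liver and 23.8 ± 7.83 and 0.720 ± 0.503 CPM in kidney, respectively (log2 fold changes 2.85 ± 0.29 and 12.28 ± 0.67), and Slc22a12, the urate carrier of the tubule, was 0 in all 4 liver libraries, and 309 and 122 (WT) and 410.3 and 245 (KO) in kidney (CPM), and it was at least 9966-fold higher in kidney. For carnitine, Bbox1, the last enzyme of its synthesis, averaged 338 ± 79.9 CPM in liver and 4.66 ± 3.11 CPM in kidney, and Slc22a5, the carnitine carrier, averaged 40.2 ± 6.04 CPM in liver and 242 ± 22 CPM in kidney (log2 fold changes 6.38 ± 0.33 and -2.60 ± 0.17). The liver hormones Igf1 and Hamp averaged 1576 ± 383 and 504 ± 167 CPM in liver and 22.5 ± 9.77 and 0.107 ± 0.0877 CPM in kidney, respectively (log2 fold changes 6.12 ± 0.41 and 12.23 ± 0.68).

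Among the detoxification genes, the cytochromes P450 of families 1 to 4 were the largest set. The table held 80, of which 68 were tested, 45 were higher in liver, 9 were higher in kidney, 1 was shared, and 13 were neither, against 43 and 14 higher with library totals. The shares higher in liver and kidney were 66.2% and 13.2%, beside 15.04% and 24.98% of all tested genes. The median log2 fold change was 5.87 (5.17 with library totals), and summed levels were 27096 to 32410 TPM in liver and 4885 to 6786 TPM in kidney. Cyp2e1, which oxidizes ethanol and small solvents, was 2875 and 7031 (WT) and 3589.9 and 4254 (KO) in liver, and 42.7 and 137 (WT) and 63.1 and 44.3 (KO) in kidney (CPM). Cyp3a11, the main mouse enzyme of the subfamily that clears many drugs, was 5786 and 10064 (WT) and 7636 and 8025 (KO) in liver, and 0.512 and 3.37 (WT) and 1.08 and 1.04 (KO) in kidney. Every liver was above every kidney for both (log2 fold changes 5.99 ± 0.56 and 12.43 ± 0.81). Cyp2c69 averaged 3030.5 ± 1736 CPM in liver and 2.76 ± 1.47 CPM in kidney (log2 fold change 9.93 ± 0.59) and was higher in both KO livers (4142 and 4804 CPM) than in both WT livers (1089 and 2087 CPM), without passing the test of the organ and genotype difference.

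Of the 68 tested enzymes 9 were higher in kidney, fewer than in liver. Cyp2j11 was 0 in all 4 liver libraries, and 264 and 449.7 (WT) and 272 and 283 (KO) in kidney (CPM), which was at least 11629.8-fold higher in kidney. Cyp4a31, of the family that hydroxylates fatty acids, was 5.82 and 23.9 (WT) and 15.0 and 25.6 (KO) in liver, and 238 and 330.4 (WT) and 350.5 and 274 (KO) in kidney, and it was higher in every kidney (log2 fold change -4.10 ± 0.47), and so were Cyp2d12 and Cyp4b1 (log2 fold changes -7.61 ± 0.61 and -1.68 ± 0.25). Cyp2j5, an epoxygenase of arachidonic acid, was 859.6 and 1178 (WT) and 1103 and 1285 (KO) in liver, and 1163 and 2423 (WT) and 1504 and 1693 (KO) in kidney. It was the most abundant member in kidney at 2296 TPM, overlapped between the organs (log2 fold change -0.62 ± 0.30, adjusted p = 0.13), and was called higher in kidney with library totals (-1.32) and with limma-trend on TPM (-1.34). The fatty acid hydroxylases Cyp4a10 and Cyp4a14 overlapped too (log2 fold changes 0.77 ± 0.51 and 0.55 ± 0.50, adjusted p = 0.26 and 0.42) and became liver calls without kidney WT replicate 2, at log2 fold changes of 1.70 and 1.36. All 3 exceeded the other organs in all 8 libraries. Close sequence relatives within these families could exchange reads, so single members are less certain than sums.

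The glucuronosyltransferases, which attach glucuronic acid, differed by member. Of 18 tested genes of 21, 12 were higher in liver and 6 were higher in kidney, with none shared. At the Ugt1a locus of chromosome 1 a row of first exons is joined to common last exons, and the annotation assigns those exons to several genes. Ugt1a1, the form that conjugates bilirubin, was 15.6 and 46.3 (WT) and 30.0 and 35.4 (KO) in liver, and 1.13 and 1.38 (WT) and 0.960 and 1.10 (KO) in kidney (CPM). Ugt1a2 was 0 and 0 (WT) and 0 and 0.184 (KO) in liver, and 232 and 445 (WT) and 326 and 394 (KO) in kidney. The organs were fully separated in opposite directions (log2 fold changes 4.80 ± 0.40 and -14.01 ± 0.70, adjusted p = 4.1e-05 and 9.2e-06), and theirs are the last 2 promoters shown above. Ugt1a5 and Ugt1a9 were higher in liver (log2 fold changes 8.62 ± 0.60 and 7.03 ± 0.66), and Ugt1a7c and Ugt1a10 were higher in kidney (log2 fold changes -6.51 ± 0.49 and -3.92 ± 0.49). Outside the locus, Ugt2b5 and Ugt2b1 averaged 1514 ± 405 and 925 ± 244 CPM in liver and 2.20 ± 1.03 and 0.179 ± 0.197 CPM in kidney, respectively, both higher in liver (log2 fold changes 9.43 ± 0.53 and 12.87 ± 0.53). Ugt3a2, which uses other sugars as donors, was 379.7 and 677 (WT) and 664 and 786 (KO) in liver, and 872 and 1868 (WT) and 1240.4 and 1404 (KO) in kidney, and it was called higher in kidney (log2 fold change -1.12 ± 0.32). That call was lost without kidney WT replicate 2 (log2 fold change -0.68) and without either of 2 liver libraries.

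Sulfotransferases were mostly liver genes. Of 16 tested genes of 21, 12 were higher in liver, 3 were higher in kidney, none was shared, and the median log2 fold change was 7.24 (6.17 with genes at 0 counts in one organ held at their bound, and 6.77 with library totals). Sult1a1, which sulfates phenols, averaged 846 ± 78.6 CPM in liver and 33.1 ± 15.0 CPM in kidney, and Sult2a8, of the family that acts on steroids and bile acids, averaged 1964 ± 353 CPM in liver and 0.189 ± 0.238 CPM in kidney (log2 fold changes 4.69 ± 0.35 and 14.14 ± 0.62). Sult1c2 was a kidney gene at 12.5 ± 1.17 CPM in liver and 114 ± 23.7 CPM in kidney (log2 fold change -3.19 ± 0.20). Sult1d1, which sulfates catecholamines, was 914 and 712 (WT) and 484 and 542 (KO) in liver, and 1173 and 2076 (WT) and 1051 and 1176 (KO) in kidney (CPM). It was abundant in both organs and above the livers in every kidney (log2 fold change -1.06 ± 0.26), and was not called without kidney WT replicate 2 (log2 fold change -0.71) or without liver WT replicate 2 (-0.97).

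Glutathione transferases changed members between the organs. Of 24 tested genes of 25, 12 (50%) were higher in liver, 7 (29.2%) were higher in kidney, and 5 were neither. Among all tested genes 15.04% were higher in liver and 24.98% in kidney. With library totals 8 and 8 were higher and 4 were shared. The balance shifted toward liver without kidney WT replicate 2, which leaves a single WT kidney. Gsta3 was 2002 and 1832 (WT) and 2120.4 and 2386 (KO) in liver, and 157 and 294 (WT) and 185 and 129 (KO) in kidney (CPM). Gsta2 was 84.2 and 35.7 (WT) and 25.2 and 12.01 (KO) in liver, and 761 and 1290.1 (WT) and 894 and 722 (KO) in kidney. These alpha-class members were exchanged without overlap (log2 fold changes 3.46 ± 0.31 and -4.77 ± 0.43). Mgst1, the microsomal form, averaged 6279 ± 1136 CPM in liver and 189.8 ± 69.9 CPM in kidney, and Mgst3 averaged 42.8 ± 11.8 CPM in liver and 226 ± 60.1 CPM in kidney (log2 fold changes 5.07 ± 0.38 and -2.44 ± 0.24). The summed level of the family was 9375 to 10161 TPM in liver and 5892 to 7475 TPM in kidney.

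Among the flavin monooxygenases, Fmo2 was 54.9 and 66.8 (WT) and 98.7 and 68.4 (KO) in liver, and 447 and 665 (WT) and 366 and 336 (KO) in kidney (CPM), higher in every kidney (log2 fold change -2.63 ± 0.23). Fmo1 averaged 391 ± 75.3 CPM in liver and 810.0 ± 263 CPM in kidney and was called higher in kidney (log2 fold change -1.06 ± 0.29), but not without kidney WT replicate 2 (log2 fold change -0.61) or liver WT replicate 1 (-0.95). Fmo4 was shared, at a log2 fold change of -0.57, and called higher in kidney with library totals (-1.30).

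Carboxylesterases, which cut esters and amides, were on the liver side for 11 of 17 tested genes and on the kidney side for 3 (Ces2b, Ces2c, and Ces2f). Ces1c, a secreted plasma esterase, and Ces3a averaged 3711 ± 136 and 1278 ± 128 CPM in liver and 1.08 ± 0.963 and 0.473 ± 0.341 CPM in kidney, respectively (log2 fold changes 11.84 ± 0.74 and 11.61 ± 0.71), and Ces2c averaged 13.9 ± 6.72 CPM in liver and 60.2 ± 26.5 CPM in kidney (log2 fold change -2.105 ± 0.42). Among 19 aldehyde dehydrogenases 5 (26.3%) were higher in liver, 4 (21.1%) in kidney, and 1 was shared. These compare with 15.04%, 24.98%, and 13.2% of all tested genes. With library totals the counts were 5, 6, and 6, and the median log2 fold change turned from 0.62 to -0.09. Aldh1a1, which makes retinoic acid, averaged 1388 ± 155 CPM in liver and 12.2 ± 4.42 CPM in kidney (log2 fold change 6.83 ± 0.40), and Aldh1a2, another retinaldehyde dehydrogenase, averaged 0.371 ± 0.302 CPM in liver and 6.32 ± 2.54 CPM in kidney (log2 fold change -4.06 ± 0.64). Aldh6a1, of valine breakdown, was shared (-0.23, and -0.92 with library totals).

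Of 15 aldo-keto reductases 6 (40%) were higher in liver, 5 (33.3%) were higher in kidney, and 2 were shared. Among all tested genes 15.04% were higher in liver and 24.98% in kidney. Akr1c6, which reduces steroids, was 2215 and 3649 (WT) and 3034 and 2981 (KO) in liver, and 0 and 0.923 (WT) and 0.186 and 0.0610 (KO) in kidney (CPM). Akr1c21, a relative that acts on steroids too, was 0.0661 and 0.442 (WT) and 0.368 and 0.735 (KO) in liver, and 1624 and 2597 (WT) and 1481 and 1406 (KO) in kidney. The exchange was nearly complete (log2 fold changes 13.62 ± 1.03 and -12.21 ± 0.60), and Akr1c21 was among the 20 most abundant kidney transcripts. The sizes depended on single libraries. Akr1c6 was 17.04 without kidney WT replicate 2, and Akr1c21 was -13.09 without liver WT replicate 2.

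Of 14 tested genes for conjugation to amino acids and acetyl groups, 3 were higher in liver and 7 in kidney, beside 15.04% and 24.98% of all tested genes, and 2 were shared. Glyat, which joins glycine to benzoate and other acids, was 541 and 726 (WT) and 739 and 597 (KO) in liver, and 694 and 1208 (WT) and 589.7 and 465 (KO) in kidney (CPM). It was shared, with a log2 fold change of -0.12 (-0.83 with library totals), as was Acsm1, which activates the acids, at 0.15 (-0.54). Acsm2, a further activating enzyme, was 1.09 and 2.52 (WT) and 4.01 and 3.77 (KO) in liver, and 1529.6 and 2381 (WT) and 1564 and 1755 (KO) in kidney, and it was a kidney gene (log2 fold change -9.42 ± 0.43). By TPM Acsm1 took 99.8% of that pair in liver and 35.6% in kidney, and 99.2% and 14.2% as shares of CPM. Nat8, which acetylates cysteine conjugates to mercapturates, averaged 0.892 ± 0.307 CPM in liver and 126 ± 71.9 CPM in kidney (log2 fold change -7.13 ± 0.43), while the related Nat8f2 averaged 1304 ± 146 CPM in liver and 16.8 ± 6.97 CPM in kidney (log2 fold change 6.29 ± 0.38).

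**Figure D3:**
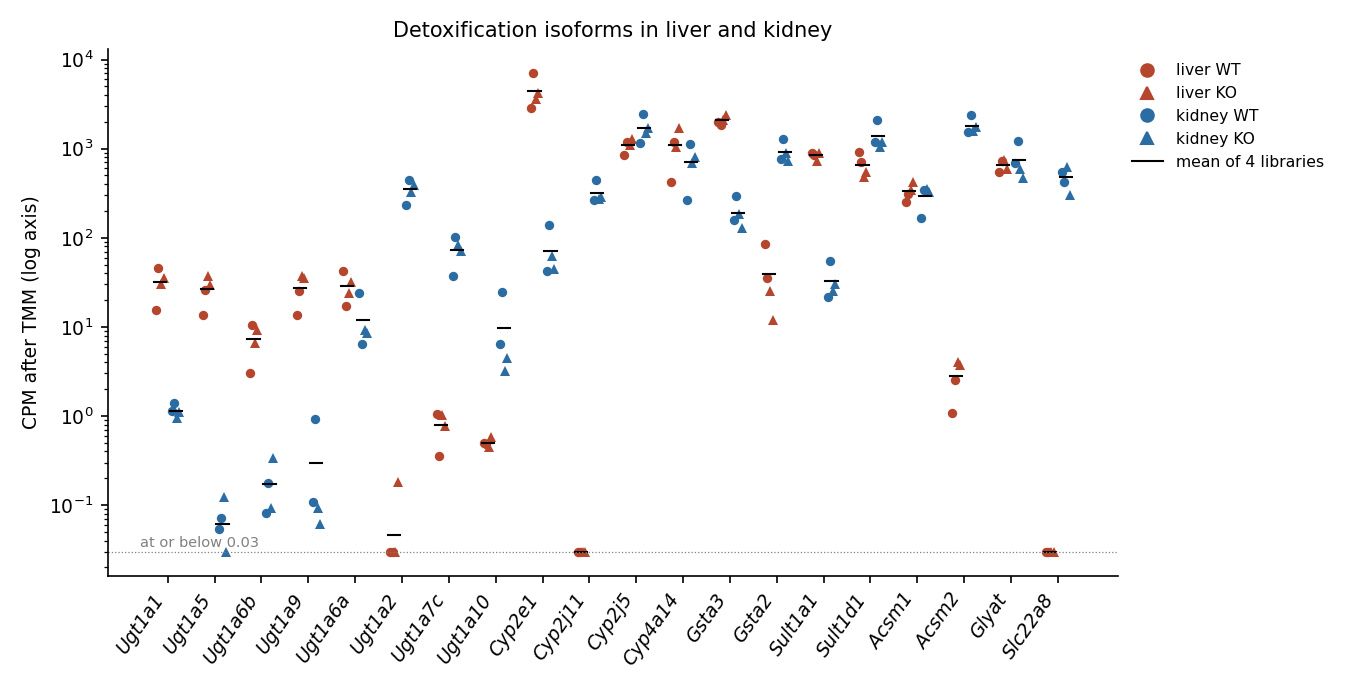
Expression (CPM after TMM, log axis) of detoxification isoforms in the 4 liver (red) and 4 kidney (blue) libraries. Circles are WT, triangles KO, black lines means of 4. The Ugt1a members divide into liver and kidney forms, and Cyp2j5, Cyp4a14, Acsm1, and Glyat overlap between organs.

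Carriers for drugs and organic ions differed in number and kind. Of 23 tested Slc22 genes of 25, 5 were higher in liver, 16 were higher in kidney, 1 was shared, and 1 was neither, with the same 5 and 16 numbers under library totals. Slc22a8, which takes up organic anions for secretion into urine, was 0 in all 4 liver libraries, and 554 and 418 (WT) and 624 and 303 (KO) in kidney (CPM). Slc22a6, a carrier of the same kind, was 0.132 and 0 (WT) and 0 and 0 (KO) in liver, and 177 and 218 (WT) and 312 and 192 (KO) in kidney. The first was at least 17400.2-fold higher in kidney, and the second had liver counts in 1 library (log2 fold change -13.59 ± 0.59). Slc22a7, another anion carrier, was 32.8 and 16.03 (WT) and 26.6 and 21.5 (KO) in liver, and 59.1 and 42.0 (WT) and 158 and 100.4 (KO) in kidney, and it was higher in every kidney (log2 fold change -1.74 ± 0.28). Slc22a2, a cation carrier, was 0 and 0 (WT) and 0 and 0.0612 (KO) in liver, and 57.9 and 193 (WT) and 171 and 131 (KO) in kidney. The livers held 2 counts of Slc22a2, for a ratio of 7604 (95% counting interval 2105 to 62793).

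The Slco carriers of bile acids and hormones were exchanged, with 5 of 9 tested genes higher in liver and 4 in kidney. Slco1b2 was 1474 and 2173 (WT) and 1894 and 1839.6 (KO) in liver, and 0.0539 and 0.816 (WT) and 0.0619 and 0.305 (KO) in kidney (CPM). Slco1a6 was 0.132 and 0 (WT) and 0 and 0 (KO) in liver, and 369.9 and 580.2 (WT) and 408 and 444 (KO) in kidney (log2 fold changes 12.69 ± 0.83 and -14.60 ± 0.60). Of 23 tested Abcb, Abcc, and Abcg genes 11 were higher in liver, 5 in kidney, and 3 were shared (9, 6, and 2 with library totals). The shares higher in liver and kidney were 47.8% and 21.7%, beside 15.04% and 24.98% of all tested genes. Abcc2, the apical pump for conjugates, was 678 and 509 (WT) and 503 and 656 (KO) in liver, and 403 and 163 (WT) and 239 and 220.4 (KO) in kidney, and it was higher in every liver (log2 fold change 1.20 ± 0.31), short of the threshold with library totals (0.46). Abcg2 and Abcc4, which export urate, drugs, and conjugates, averaged 85.0 ± 19.1 and 3.20 ± 0.599 CPM in liver and 558 ± 121 and 54.8 ± 11.3 CPM in kidney, respectively, both higher in kidney (log2 fold changes -2.71 ± 0.26 and -4.10 ± 0.26).

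Across all solute carriers, 372 Slc genes were in the table and 318 were tested. Of these 60 (18.9%) were higher in liver, 131 (41.2%) were higher in kidney, 26 were shared, and 101 were neither, with 41 and 171 under library totals. Of all tested genes 15.04% were higher in liver and 24.98% in kidney, and 9.87% and 41.4% with library totals. Summed levels were 9147 to 11695 TPM in liver and 18551 to 29391 TPM in kidney. In the sugar and organic acid list 6 of 26 were higher in liver and 16 in kidney, with a median log2 fold change of -3.43 (2 and 18, and -4.13, with library totals). Slc2a2, the facilitative glucose carrier of both organs, was 471 and 622 (WT) and 403 and 397 (KO) in liver, and 149 and 234 (WT) and 163 and 215 (KO) in kidney (CPM). It was higher in every liver (log2 fold change 1.30 ± 0.23, adjusted p = 0.0024), though not called with library totals (0.59), and made up 97.0% of its pair with Slc2a1 in liver and 81.0% in kidney. Slc5a2, the sodium-coupled glucose carrier of the early proximal tubule, was 0.132 and 0 (WT) and 0 and 0 (KO) in liver, and 485 and 39.3 (WT) and 267 and 213 (KO) in kidney. Slc5a1, that of the late proximal tubule, was 0.860 and 0.442 (WT) and 0.655 and 1.84 (KO) in liver, and 53.5 and 116 (WT) and 96.7 and 108 (KO) in kidney. Both were kidney genes (log2 fold changes -13.76 ± 1.37 and -6.66 ± 0.46), and kidney WT replicate 2 held the least of the first and the most of the second.

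Slc5a12, a lactate carrier of the tubule, was 0 in all 4 liver libraries, and 334 and 395 (WT) and 215 and 273 (KO) in kidney (CPM), and it was at least 11146-fold higher in kidney. Slc13a3, which takes up dicarboxylates, averaged 16.4 ± 1.98 CPM in liver and 357 ± 93.3 CPM in kidney (log2 fold change -4.45 ± 0.27), and Slc16a12, which moves creatine, was 114 and 159 (WT) and 138 and 171 (KO) in liver, and 137 and 140.2 (WT) and 139 and 141 (KO) in kidney. The latter was shared, at a log2 fold change of 0.06 (-0.67 with library totals), and exceeded the other organs in all 8 libraries. Slc16a1, the monocarboxylate carrier for lactate and pyruvate, was higher in liver at 98.3 ± 19.7 CPM in liver and 24.7 ± 4.13 CPM in kidney (log2 fold change 1.99 ± 0.21).

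Of 34 tested amino acid carriers of 35, 10 were higher in liver and 21 in kidney, beside 15.04% and 24.98% of all tested genes, and 3 were neither, with a median log2 fold change of -2.83 (6 and 24 higher, and -3.58, with library totals). Slc38a4 and Slc38a3, which take up alanine, glutamine, and other neutral amino acids, averaged 1308 ± 225 and 1137 ± 147 CPM in liver and 2.64 ± 0.495 and 32.0 ± 12.7 CPM in kidney, respectively (log2 fold changes 8.96 ± 0.31 and 5.15 ± 0.37). In kidney, Slc6a18 and Slc6a19, the apical carriers of neutral amino acids, averaged 0.0440 ± 0.0355 and 0.307 ± 0.1704 CPM in liver and 709 ± 166 and 210.1 ± 67.0 CPM in kidney, respectively, and their partner Cltrn (collectrin) was 0.0661 and 0.265 (WT) and 0.164 and 0.276 (KO) in liver, and 2128 and 3166 (WT) and 2137 and 1882 (KO) in kidney (CPM). Slc7a9 and Slc3a1, the subunits of the cystine carrier, averaged 0.0165 ± 0.0331 and 15.4 ± 9.74 CPM in liver and 141 ± 14.7 and 355 ± 104 CPM in kidney, respectively. For Slc7a9 the livers held 2 counts, for a ratio of 7761 (95% counting interval 2148 to 64083), and the other kidney genes named were also far above the livers (log2 fold changes -14.06 ± 0.47, -9.51 ± 0.31, -13.56 ± 0.52, and -4.68 ± 0.38).

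Salt, phosphate, and water carriers were mostly kidney genes. Of 43 genes 30 were higher in kidney, 3 were higher in liver, 1 was shared, and 9 were neither, with a median log2 fold change of -5.93 (-6.67 with library totals) and summed levels of 684 to 798 TPM in liver and 9049 to 14812 TPM in kidney. Slc12a1, the salt carrier of the thick ascending limb, was 0 and 0 (WT) and 0.0819 and 0.0612 (KO) in liver, and 1123 and 1080.4 (WT) and 1188 and 1215 (KO) in kidney (CPM), even across all 4 kidneys (log2 fold change -15.996 ± 0.41). Slc34a1 and Slc12a3 kept their kidney calls with and without kidney WT replicate 2, at log2 fold changes of -14.67 and -14.98, and -13.38 and -13.74. Aqp9 and Aqp2, both water channels, differed in opposite directions. Aqp9, which also passes glycerol and urea, was 276 and 479 (WT) and 363 and 379 (KO) in liver, and 0.0539 and 0.390 (WT) and 0.0619 and 0.0610 (KO) in kidney, and it was a liver gene (log2 fold change 11.64 ± 0.55), whereas Aqp2, the channel under vasopressin control, was 0 in all 4 liver libraries, and 108 and 18.3 (WT) and 149 and 90.6 (KO) in kidney, and it was at least 3349.8-fold higher in kidney.

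**Figure D4:**
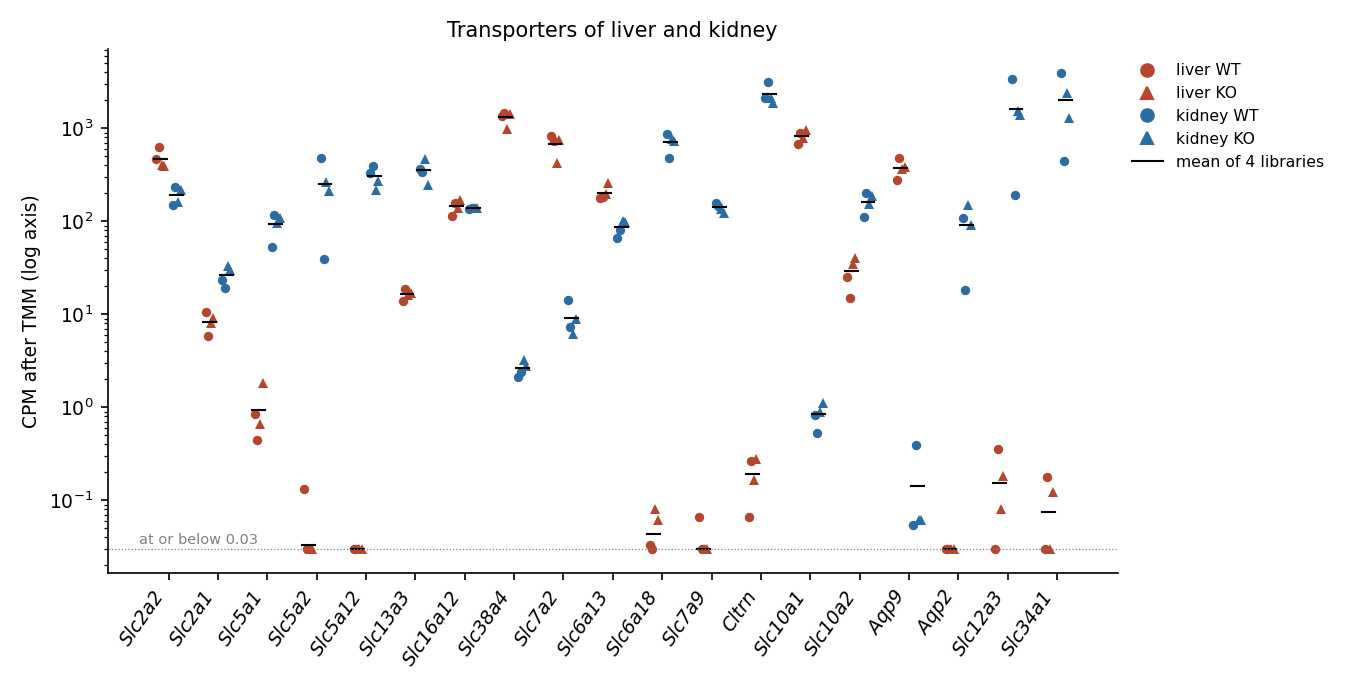
Expression (CPM after TMM, log axis) of carriers and channels in the 4 liver (red) and 4 kidney (blue) libraries. Circles are WT, triangles KO, black lines means of 4. Slc16a12 overlaps between organs, Slc2a2, Slc38a4, Slc7a2, Slc10a1, and Aqp9 are higher in liver, and tubular carriers such as Slc6a18 and Slc34a1 are at or near 0 in liver.

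The transcription factors known from these organs were also divided. Of 40 genes 19 were higher in liver, 15 were higher in kidney, 1 was shared, and 5 were neither. Among all tested genes 15.04% were higher in liver and 24.98% in kidney. The median log2 fold change of the list was 0.52 and turned to -0.20 with library totals. Hnf4a, which drives genes of hepatocytes and of proximal tubule, was 393 and 656 (WT) and 517 and 625 (KO) in liver, and 374 and 414 (WT) and 423 and 368 (KO) in kidney (CPM), and it overlapped (log2 fold change 0.47 ± 0.23, adjusted p = 0.13; -0.26 with library totals). Foxa2, a factor of endodermal organs, averaged 31.2 ± 15.1 CPM in liver and 0.0223 ± 0.0269 CPM in kidney, and the livers outnumbered the 3 kidney counts at a ratio of 1357 (95% counting interval 464 to 6578). Pax2, a factor of the kidney lineage, was 0 in all 4 liver libraries, and 46.2 and 0.745 (WT) and 29.9 and 20.95 (KO) in kidney, lowest in kidney WT replicate 2 and at least 896-fold higher in kidney. Ppargc1a, a coactivator of mitochondrial and gluconeogenic genes, was 28.9 and 40.6 (WT) and 14.001 and 25.4 (KO) in liver, and 97.2 and 109 (WT) and 86.4 and 107 (KO) in kidney, and it was higher in every kidney (log2 fold change -1.93 ± 0.24).

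**Figure D5:**
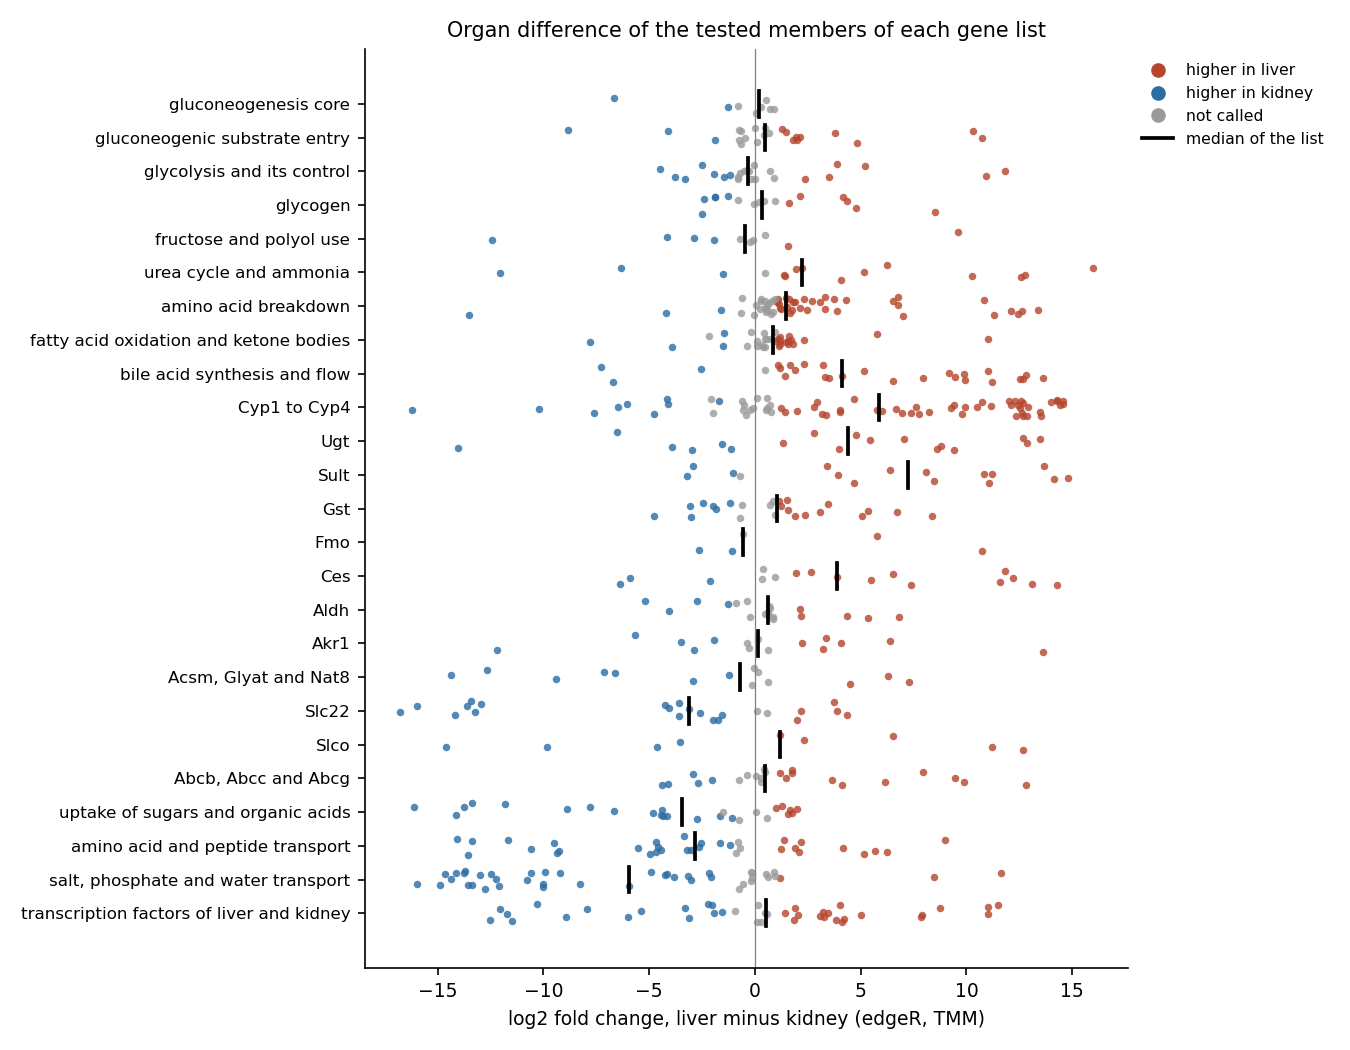
Log2 fold change (liver minus kidney, TMM) of each tested member of 25 gene lists. Red dots were called higher in liver, blue dots higher in kidney, grey dots were not called, and black bars are list medians. The bile acid, Sult, and Cyp lists lie to the liver side, and the salt, Slc22, sugar, and amino acid carrier lists lie to the kidney side.

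Genes that set both organs apart from the rest of the series were counted last. In all, 589 genes (587 of them tested, 3.11% of tested genes) were higher in each of the 8 liver and kidney libraries than in any of the 12 libraries of small intestine, spleen, and heart. Among them 174 were higher in liver, 82 were higher in kidney, and 116 were shared, and 101 exceeded 100 TPM in both organs. Over all tested genes the shares of the first 3 classes were 15.04%, 24.98%, and 13.2%. Selection for a high level in both organs by itself favors the 10 TPM minimum of the shared class. The lists, pairs, and markers described here, with Nsun6 and Xist, comprised 753 genes and held 102 of the 589. Slc genes of no other list were left out of that number. The shared ones included Glyat, Acsm1, Gclc, Gclm, Sord, Xylb, Slc16a12, and Aldh6a1. With spleen WT replicate 2 set aside, the count was 625.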

How the data were processed

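RNA from ground tissue was sequenced in 20 libraries, of which the 4 liver and 4 kidney libraries were compared. The authors trimmed reads with cutadapt, aligned them to mm10 with HISAT2 2.1.0, and deposited raw counts per gene made with featureCounts 2.0.1 on Ensembl GRCm38. The study's methods give stranded counting of read pairs, whereas the counting command in the file header sets no strand or paired-end option. Which holds for the deposited counts was not settled, so overlapping antisense genes may share reads and mates may be counted separately. The 37 mitochondrial genes are listed at 0 in all libraries. Depth per library is given in the report. Counting intervals and the floor of 3 counts cover counting error only.

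Genes kept by the filterByExpr function were tested in edgeR 4.0.16 (quasi-likelihood, TMM, Benjamini-Hochberg adjustment), with a mean for each organ and genotype and the contrast of the mean liver against the mean kidney level. A call needed an adjusted p under 0.1 and a fold over 2. On simulated counts the test recovered 138 of 200 genes changed 4-fold, with 26 false calls among 18212 genes. Beside the 138, the 26 are a larger share than the adjusted p threshold of 0.1 aims at. The interval of the shared rule held for 46.1% of the unchanged genes. The 200 genes changed equally often in each direction, whereas 40.02% of tested genes were called here. The simulation therefore cannot tell how well the scaling between the organs works. Alternatives used DESeq2 1.42.0, limma 3.58.1, other scalings, filters, and designs, and left out each library in turn. TPM were computed from the counts and exon lengths, without TMM scaling. The study calls its replicates biological, but the labels tie no library to an animal.

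Members and gene lists were chosen with earlier results of these data known. Candidates for naming were all genes of the core, relay, pair, and marker lists. From each other list they were the separated calls of highest level (up to 5 per direction) or largest fold (up to 2) and up to 3 shared genes. Over all genes, the 5 largest folds per direction were added. Acadm, Amt, Asl, Cyp2j5, Cyp4a10, Cyp4a14, Hnf4a, Ivd, Slc22a2, Ugt1a1, Ugt1a10, Ugt1a5, Ugt1a9, Nsun6, and Xist were named outside this rule, after their values were seen. Some genes of these lists are counted in the totals but not reported here by name.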

Additional observations from a re-analysis of the deposited data

Results flagged for a closer look

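For the genes named in the report, the CPM of the 4 libraries of each organ were searched for a library whose gap to its nearest neighbour was large beside the whole range (above the 95% critical value of Dixon). In 35 of 374 cases 1 library stood apart. In 10 of them the other 3 libraries were at 0, which fixes the ratio at its maximum. Among the 354 cases with counts in 2 or more libraries 25 stood apart. Chance alone gives about 1 in 20 for independent values of normal distribution. The CPM were not log-transformed and the cases share the same 8 libraries, so that rate is no expectation for the 25.

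Kidney WT replicate 2 was the library apart in 12 cases, on the high side in each. They were Acadsb (304 against 212 to 221), Aqp9 (0.390 against 0.0539 to 0.0619), Cdo1 (208 against 111 to 124), Cps1 (1.31 against 0.427 to 0.539), Cyp2j11 (449.7 against 264 to 283), Gc (286 against 125 to 147), Hao1 (0.497 against 0 to 0.0610), Mgst1 (295 against 148 to 158), Sult1d1 (2076 against 1051 to 1176), Tdo2 (2.59 against 0.588 to 0.793), Ugt1a10 (24.4 against 3.19 to 6.46), and Ugt1a9 (0.923 against 0.0610 to 0.108) CPM, the second values being the range of the other 3 kidneys. Of these, 8 were called higher in liver (Aqp9, Cdo1, Cps1, Gc, Hao1, Mgst1, Tdo2, and Ugt1a9). The 15 hepatocyte markers summed to 533 TPM in that library and to 275, 477, and 365 TPM in the other kidneys. Whether liver RNA contributed to these values was not tested.

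In the other kidneys the library apart was WT replicate 1 for Acsm1 (166 against 325 to 356), Cyp27b1 (5.09 against 8.45 to 8.77), Fmo4 (46.5 against 32.9 to 34.2), Gpx3 (11910.0 against 17788 to 18995), and Slc6a19 (310.2 against 172 to 184), and KO replicate 1 for Dao (139 against 98.9 to 106), Gamt (9.01 against 7.002 to 7.26), and Pcx (215 against 144 to 156) CPM.

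In liver, 10 kidney genes had counts in 1 library and 0 in the other 3. These were Slc22a6 (0.132), Slc5a2 (0.132), Slc7a9 (0.0661), Slco1a6 (0.132), and Vdr (0.298) CPM in WT replicate 1, Ggt1 (0.0612), Rhcg (0.122), Slc22a2 (0.0612), and Ugt1a2 (0.184) CPM in KO replicate 2, and Dao (0.0409) CPM in KO replicate 1. The remaining livers apart were WT replicate 1 for Hadhb (218 against 351 to 375), WT replicate 2 for Gys2 (537 against 196 to 228), KO replicate 1 for Aldh6a1 (489 against 636 to 653) and Umod (0.409 against 0 to 0.0612), and KO replicate 2 for Sult1c2 (10.7 against 12.9 to 13.3) CPM.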

How the results depend on the processing

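The counts of called genes moved by more than 1.5 times in few alternatives. Genes higher in liver were 1865 with library totals, 1641 with at least 10 counts in every library, 1728 at a fold over 4, 1826 with the WT libraries only, and 1555 with limma-trend on TPM. Genes higher in kidney were 7830, 2280, and 2827 with library totals, the count minimum, and the WT libraries only. Shared genes were 1586 with library totals, 544 in WT only, 1471 with limma-trend, 684 with an interval inside 1.5-fold, and 4220 with a minimum of 1 TPM. The main counts were 2842, 4719, and 2485, and leaving out 1 library gave 2633 to 4099, 4284 to 4873, and 1928 to 3020. With kidney WT replicate 1 or replicate 2 left out, 1 WT kidney remains, and it is assumed to vary like the other groups. The test of the organ by genotype difference gave 42 calls with no filter on low counts and 0 to 1553 with 1 library left out. The value of 1553 came without kidney WT replicate 1, and the cause was not tested. Pairs with separated isoenzyme shares numbered 17 on either scale. The leading gene in kidney changed with CPM shares for the glycogen synthase, glycogen phosphorylase, aspartate aminotransferase, and proline dehydrogenase pairs.

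The replicate numbers were used as a replicate block in a paired fit, which called 2998 genes higher in liver, 4687 higher in kidney, 2754 shared, and 0 for the organ by genotype difference. The labels do not say that the numbers pair the organs. Deviations of same-numbered libraries had correlations of 0.194 (WT) and 0.132 (KO), and the block changed no call of a named gene. Of the 150 named genes called in one organ, 128 kept their call in every alternative that held them, and none was called the opposite way in any. DESeq2, edgeR's RLE factors, and the fit on organ alone changed no call of a named gene. With the WT libraries only, 11 named genes lost their call (Abcc2, Acadm, Ces2c, Fmo1, G6pc3, Pfkm, Slc22a7, Slc2a1, Slc6a6, Sult1d1, and Ugt3a2), as did 6 in the fit of all 20 libraries (Abcc2, Fmo1, Slc10a2, Slc2a2, Sult1d1, and Ugt3a2) and 3 with limma-trend (Abcc2, Ass1, and Slc2a2). A lost call need not mean a smaller fold. The log2 fold change of Abcc2 was 1.05 with WT only, 1.29 with all 20 libraries, and 0.50 with limma-trend, beside 1.20 in the main fit. Ces2f lost its call without kidney KO replicate 1 (log2 fold change -5.00248). Depth limits the genes with a few counts in one organ, for which only ratios with wide counting intervals can be given.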

Other observations

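Markers of other cells that a piece of liver or kidney can hold gave these values. Blood and erythroid genes (5 markers, led by the hemoglobin genes) summed to 830 to 1768 TPM in liver and 4031 to 5167 TPM in kidney. Kupffer cell genes (7 markers) summed to 476 to 576 TPM in liver and 30.4 to 77.3 TPM in kidney. B cell and T cell genes stayed under 8.48 TPM per library in both organs. Of the 5 cholangiocyte markers 4 were called higher in kidney and 1 in liver, and they summed to 5133 to 7012 TPM in kidney and 52.5 to 74.3 TPM in liver. Most of the kidney sum was Spp1, which the tubule also expresses. The exocrine pancreas list reached 224 to 271 TPM in kidney, nearly all of it Cela1, while its members Cpa1, Ctrb1, and Pnlip were at 0. The heart muscle markers summed to 10.5 TPM in liver WT replicate 1 and to 0.475 to 1.56 TPM in the other livers. The part of any of these cells in the organ differences was not tested.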
